A study of Mus musculus with 6 samples.

Results

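Among the sites bound by Flag-tagged Rxra in mouse embryonic fibroblasts, 1167 distal sites overlapped an H3K27 acetylation region called after CD treatment. None of these sites overlapped a region called after DMSO treatment, though the CD region itself could do so beyond the Rxra peak. The sites were selected by a rule on the deposited peak lists. A replicate 1 Rxra peak was kept if it overlapped a replicate 2 peak by at least 1 bp and its summit lay more than 1 kb from the start and the end of every RefSeq protein-coding gene. It also had to overlap an H3K27ac region of the CD list and no region of the DMSO list. Of 28243 replicate 1 peaks, 17623 were shared with replicate 2 and 11431 of these were distal, so that the CD-only sites made up 10.2% of the distal shared peaks (95% exact binomial interval 9.66% to 10.8%, counting error only). That share comes from the contrast that chose the sites, and nothing is read from it alone. Their number rests on lenient calls: it was 315 when H3K27ac regions of both lists needed a −log10 q of 2 or more, of which 191 were among the 1167 and 124 had a weaker DMSO region in the full list, and, from 1 Flag-Rxra replicate alone, 2686 without replicate 1 and 1898 without replicate 2.

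The cells were OG2X129 mouse embryonic fibroblasts in a chemical reprogramming experiment, in which small molecules convert fibroblasts to pluripotent stem cells. There were 3 groups of 2 CUT&Tag samples, an assay in which an antibody directs a transposase to chromatin and the released fragments mark the bound place. Cells given CD (CD3254, a synthetic RXR agonist named in the series title) and cells given DMSO, the solvent, were profiled with an H3K27ac antibody. Cells that overexpressed Flag-Rxra were profiled with a Flag antibody, so the Rxra peaks are those of a tagged, overexpressed receptor. The labels do not give the day of sampling, the dose, the compound added to the Flag-Rxra cells, or whether replicates were separate cultures. The 2 replicates of an H3K27ac condition point to a single common list, so a CD-only call has no replicate error. The lists hold no read counts and the depth of each library is unknown.

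RXRα, the product of Rxra, is a nuclear receptor that binds DNA as the partner of retinoic acid, PPAR, LXR, FXR, thyroid hormone and vitamin D receptors. Such dimers bind paired copies of a hexamer with the letters AGGTCA, often as a direct repeat, and exchange corepressors for coactivators when a ligand is bound. H3K27ac is deposited by the coactivators p300 and CBP and marks active promoters and enhancers, and a distal receptor site with H3K27ac is the usual description of a receptor-bound active enhancer.

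Some CD-only sites lay at annotated alternative or noncoding starts, for which promoter sequence could be shown. The windows below are the 250 bases before the start, 5′ to 3′ on the gene's strand, from RefSeq on GRCm38.p6 (mm10). Capitals mark exact copies of the hexamer AGGTCA (or TGACCT, the same letters on the other strand) and of the AP-1 letters TGANTCA. Cpt1a and Dhcr7 are shown because they are lipid genes from the lists described later and carry a hexamer. Pdss1, Osbpl2, Mdm4 and Lmna carry a hexamer as well, and Kifap3 and Ddx56 were the most strongly Rxra-enriched CD-only sites at a start, with neither set of letters in the window.
Cpt1a: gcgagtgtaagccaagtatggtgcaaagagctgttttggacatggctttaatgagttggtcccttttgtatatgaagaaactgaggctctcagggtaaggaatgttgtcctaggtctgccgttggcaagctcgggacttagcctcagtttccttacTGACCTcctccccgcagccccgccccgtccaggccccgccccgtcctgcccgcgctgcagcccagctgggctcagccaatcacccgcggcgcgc
Dhcr7: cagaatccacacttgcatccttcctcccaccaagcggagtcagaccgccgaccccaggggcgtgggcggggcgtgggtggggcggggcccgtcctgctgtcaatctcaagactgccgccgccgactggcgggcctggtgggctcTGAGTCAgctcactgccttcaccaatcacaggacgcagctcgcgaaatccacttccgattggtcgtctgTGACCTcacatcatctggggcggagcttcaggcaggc
Pdss1: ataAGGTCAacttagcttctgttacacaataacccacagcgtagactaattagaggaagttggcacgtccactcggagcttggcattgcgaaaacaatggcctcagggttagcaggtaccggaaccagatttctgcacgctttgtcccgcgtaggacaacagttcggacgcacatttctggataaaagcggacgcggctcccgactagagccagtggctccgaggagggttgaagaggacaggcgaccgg
Osbpl2: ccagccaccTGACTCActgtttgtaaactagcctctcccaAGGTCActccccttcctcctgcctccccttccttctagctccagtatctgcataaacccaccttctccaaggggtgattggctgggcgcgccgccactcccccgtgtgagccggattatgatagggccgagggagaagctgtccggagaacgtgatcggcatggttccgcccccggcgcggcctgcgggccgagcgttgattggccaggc
Mdm4: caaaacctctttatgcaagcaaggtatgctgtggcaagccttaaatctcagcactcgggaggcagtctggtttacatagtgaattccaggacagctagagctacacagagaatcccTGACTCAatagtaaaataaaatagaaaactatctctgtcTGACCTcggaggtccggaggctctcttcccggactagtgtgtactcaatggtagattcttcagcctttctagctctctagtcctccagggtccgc
Lmna: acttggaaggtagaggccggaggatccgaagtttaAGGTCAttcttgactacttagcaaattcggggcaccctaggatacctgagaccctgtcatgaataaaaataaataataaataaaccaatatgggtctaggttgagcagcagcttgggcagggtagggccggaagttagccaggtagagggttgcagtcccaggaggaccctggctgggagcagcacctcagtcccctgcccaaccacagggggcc
Kifap3: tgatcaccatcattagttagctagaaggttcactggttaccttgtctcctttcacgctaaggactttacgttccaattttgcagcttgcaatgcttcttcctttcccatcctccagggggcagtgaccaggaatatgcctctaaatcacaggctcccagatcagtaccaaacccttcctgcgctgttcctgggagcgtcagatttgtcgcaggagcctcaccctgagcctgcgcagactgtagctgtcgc
Ddx56: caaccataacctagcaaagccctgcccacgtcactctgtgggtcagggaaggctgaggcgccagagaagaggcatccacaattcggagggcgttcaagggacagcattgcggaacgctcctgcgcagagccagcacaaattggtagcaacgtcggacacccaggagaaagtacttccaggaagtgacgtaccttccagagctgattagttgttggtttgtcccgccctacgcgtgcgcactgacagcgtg

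Cpt1a encodes a carnitine acyltransferase needed for the mitochondrial import of long-chain fatty acids. Its start was at chromosome 19, position 3323301 and the CD-only peak was chr19:3323223-3323667. Its Rxra fold enrichment was 4.92 in replicate 1 and 10.8 in replicate 2. The peak at Dhcr7, the last enzyme of cholesterol synthesis, was chr7:143829551-143830293, with folds of 13.9 and 19.2. Its CD region had a −log10 q of 1.03 and did not reach the Rxra summit, and a DMSO region lay 90 bp from the peak. The summit there lay 8 bp from the centre of the hexamer, the shortest such distance among the sites with a hexamer in their window. At Pdss1, an enzyme of ubiquinone synthesis (peak chr2:22895310-22896011), the folds were 18.9 and 30.7, and the hexamer lay 228 bp from the summit. Osbpl2, of the oxysterol-binding protein family (chr2:180118657-180119441), had folds of 10.6 and 20.1, with the hexamer 94 bp from the summit. Mdm4, an inhibitor of p53 (chr1:133025012-133025598), had folds of 12.1 and 14.7, with the hexamer 72 bp from the summit. Lmna, which encodes the nuclear lamins A and C (chr3:88492472-88493292), had folds of 10.0 and 9.67, with the hexamer 432 bp from the summit. The hexamers at Dhcr7, Osbpl2 and Mdm4 lay inside the Rxra peak and those at Cpt1a, Pdss1 and Lmna outside it. Taking for each site the window with the nearest start, 22 sites had a hexamer, at a median of 62 bp from the summit (8 to 476 bp), and at 14 of them it lay inside the peak.

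RefSeq promoter windows were 300 bp long, 250 bp before to 50 bp after each annotated start of a coding or long noncoding gene, and the table used here holds none on chromosome 18. Of 1121 CD-only sites on the other chromosomes, 113 overlapped a window (10.1%, 8.38% to 12.0%), beside 8.04% of all distal shared peaks. Distance from the ends of coding genes therefore does not mean distance from every start. The share was 10.1% of the DMSO-only peaks, 13.6% of the peaks with H3K27ac in both conditions and 6.02% of the peaks with none. Of the 113, 84 overlapped a window of a coding gene, at a start inside the gene, and 29 overlapped a window of a long noncoding RNA alone. The median distance from the start to the Rxra summit was 90 bp.

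Letters of the hexamer, searched on both strands, were present in 28 of the 135 windows under a CD-only site (20.7%, 14.2% to 28.6%). The share was 16.3% of all 32851 windows and 14.3% of the 938 windows under other distal shared peaks. Both values lie inside the interval of the CD-only windows, the second only just above its lower limit. The interval of the windows under other distal peaks, 12.1% to 16.7%, leaves out 20.7%, and the difference was not tested. The AP-1 letters TGANTCA were in 12 of 135 windows (8.89%), 7.81% of all windows and 9.38% of the windows under other distal peaks. A direct repeat of the hexamer, with 0 to 5 bases between the copies and up to 2 mismatches in all, was in 17 of 135 windows (12.6%). It was in 15.8% of all windows and 14.5% of the windows under other distal peaks. An exact hexamer can be part of such a repeat. These matches describe letters in a window and not receptor binding, and windows of 1 gene can share bases.

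More distal Rxra peaks had H3K27ac in DMSO only than in CD only, although the CD list was the longer. The CD list held 104437 regions and the DMSO list 75482. Of the distal shared peaks, 2003 were DMSO only (17.5%), 1345 had a region in both conditions (11.8%) and 6916 had none (60.5%). CD-only sites were 36.8% (35.1% to 38.5%) of the distal peaks with a region in 1 condition. Among all H3K27ac regions without a counterpart in the other list, 59.6% were CD only, and among those away from gene ends 60.0%. Seen from the regions, 1148 of 84505 distal CD-only regions held a distal shared Rxra peak (1.36%, 1.28% to 1.44%), against 1848 of 56372 distal DMSO-only regions (3.28%, 3.13% to 3.43%). The median widths of these regions were 253 bp and 290 bp. Rxra peaks within 1 kb of gene ends had the same order, with 854 CD only and 1351 DMSO only, or 38.7% CD only (36.7% to 40.8%). CD-only sites were fewer than DMSO-only peaks on 20 of the chromosomes, each autosome and chromosome X. Intervals are exact binomial ones over peaks, which are not replicates of a condition, and the difference was not tested over samples because each condition has 1 list.

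**Figure D1:**
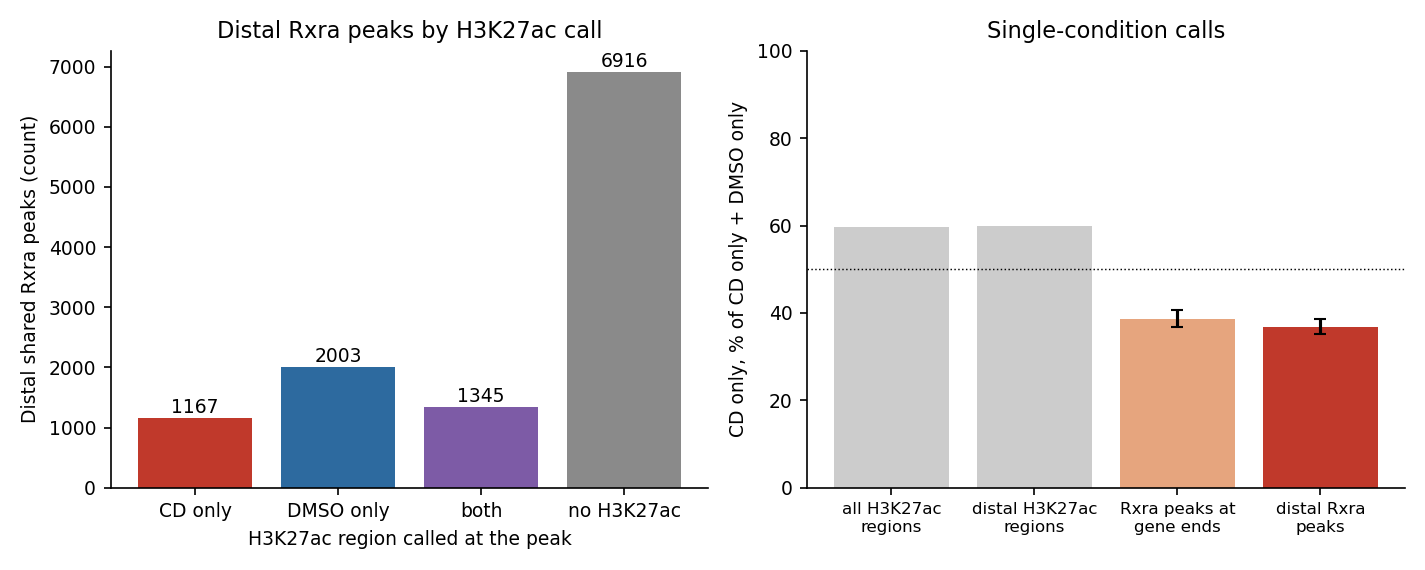
Left, distal shared Rxra peaks (count) by the H3K27ac list that held a region at the peak. Right, CD-only calls as a percent of all single-condition calls, for H3K27ac regions (grey) and for Rxra peaks (orange and red, with 95% exact binomial intervals), where the dotted line marks equal numbers: regions lie near 60% and Rxra peaks below 40%.

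Chromosome X had a lower share of CD-only sites than any autosome. It had 3 CD-only sites among 154 distal shared peaks (1.95%, 0.404% to 5.59%), whereas the share on autosomes ran from 8.67% on chromosome 6 to 12.4% on chromosome 7. DMSO-only peaks on X numbered 24 (15.6%, 10.2% to 22.3%), within the range of 14.9% to 19.9% over autosomes. On X 27 of the 154 peaks had both, beside 1345 of 11431 (11.8%) over all chromosomes. Most Rxra peaks with a CD region on X thus had a DMSO region too, and CD regions were not absent there. The CD list held 1268 regions on X (1.21% of the list, median width 232 bp) and the DMSO list 696 (0.922%, 278 bp), and their part in the low share was not tested. Chromosome Y had no CD-only site among 9 distal peaks.

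The Rxra signal at CD-only sites was ordinary for distal peaks. Fold enrichment, the authors' ratio of signal to the background estimated by the peak caller, had a median of 9.98 in replicate 1 (quartiles 7.56 and 12.7, range 2.69 to 42.8). In replicate 2 the median was 13.9 (quartiles 10.5 and 18.4, range 3.13 to 55.3). Peaks with no H3K27ac had medians of 9.66 and 13.5, DMSO-only peaks 10.5 and 14.7, and peaks with H3K27ac in both conditions 11.1 and 15.2. The order of the classes was the same in both replicates, and the quartile ranges overlapped. Of the CD-only sites, 53.6% (50.7% to 56.5%) lay above the median of the no-H3K27ac peaks in replicate 1 and 53.5% (50.6% to 56.4%) in replicate 2. The fold was higher in replicate 2 at 971 CD-only sites (83.2%) and at 83.1% of the other distal peaks. Over the 1167 sites the folds of the replicates had a Spearman correlation of 0.59, a description across sites that share 2 libraries.

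**Figure D2:**
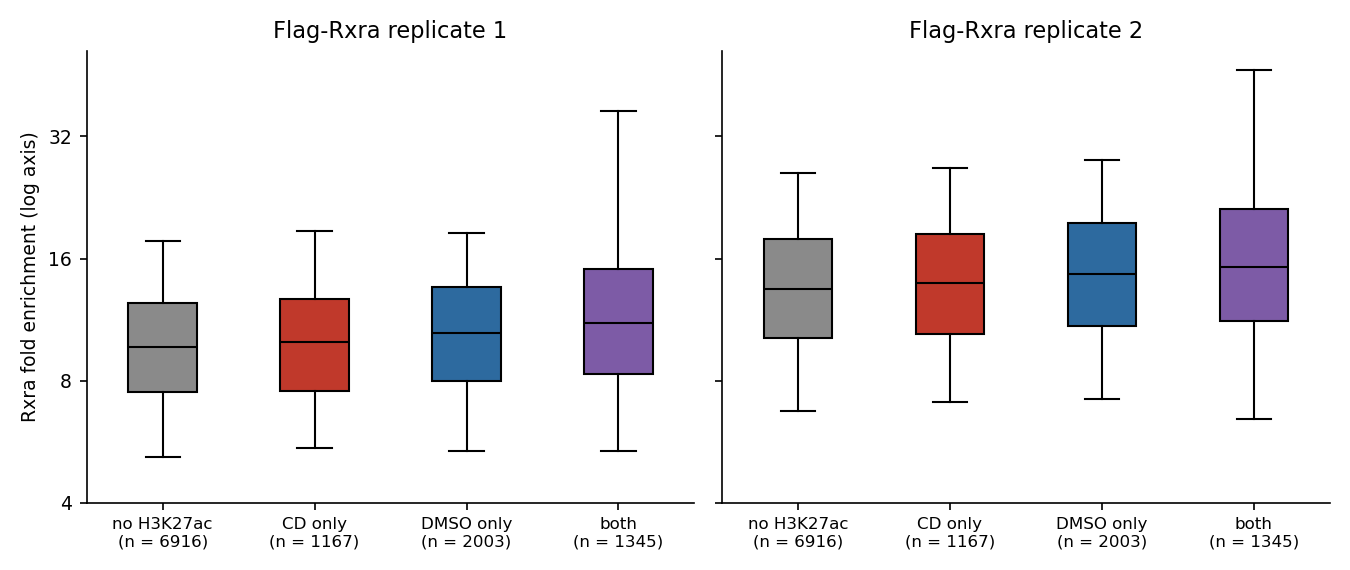
Rxra fold enrichment (log axis) of distal shared peaks by H3K27ac class, in each Flag-Rxra replicate. Boxes show quartiles and medians and whiskers the central 90% of peaks. The CD-only medians, 9.98 and 13.9, lie between those of the no-H3K27ac and DMSO-only peaks in both replicates.

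Peak width followed the H3K27ac classes more than fold did. The median width was 368 bp for CD-only sites, 316 bp for peaks without H3K27ac, 382 bp for DMSO-only peaks and 449 bp for peaks with both. A wider peak also meets an overlap rule of 1 bp more easily, and the part of this in the widths was not tested.

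Most CD-only calls rested on weakly scored H3K27ac regions. The −log10 q of the CD region, the authors' value, had a median of 1.46, where the CD list began at 1.00. It was 2 or more at 191 sites (16.4%) and 10 or more at 6. All CD-only regions of the list had a median of 1.37, with 11.8% at 2 or more. Among the DMSO-only peaks, 402 (20.1%) had a DMSO region of 2 or more and 3 had one of 10 or more. The fold of the CD region had a median of 3.08 (quartiles 2.88 and 3.32). The CD region covered a median of 53.3% of the Rxra peak, 189 bp, and the Rxra summit lay inside it at 716 sites (61.4%). The 1167 sites used 1163 distinct CD regions, with a median width of 394 bp. Fold of the CD region and Rxra fold had a Spearman correlation of 0.20 in replicate 1 and 0.14 in replicate 2 across the sites.

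DMSO acetylation was often close by, so the label "acetylated only in CD" holds for the peak itself and less for its surroundings. The nearest DMSO region lay a median of 3000 bp away (quartiles 862 and 7557 bp). It was within 500 bp at 179 sites (15.3%), within 1 kb at 321 (27.5%, 25% to 30.2%) and within 5 kb at 740 (63.4%). Peaks with no H3K27ac in either list had a median of 3654 bp and 20.9% within 1 kb (19.9% to 21.9%). The DMSO-only peaks had a median of 2379 bp to the nearest CD region and 30.01% within 1 kb. Between 1 and 50 kb from the summit, CD-only sites had a median of 3096 bases under CD regions and 2894 under DMSO regions, and 54.1% (51.2% to 56.96%) had more CD than DMSO bases. That share was 57.6% (55.4% to 59.8%) around DMSO-only peaks and 56.8% around all distal peaks, which lies inside the interval of the CD-only sites.

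**Figure D3:**
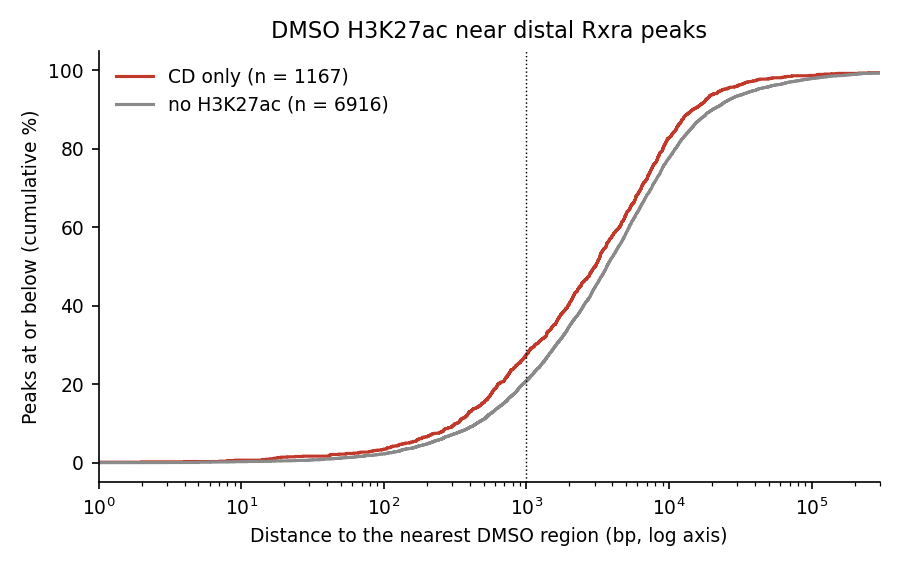
Cumulative percent of peaks by distance to the nearest DMSO H3K27ac region (bp, log axis), for CD-only sites and for distal peaks with no H3K27ac. The dotted line marks 1 kb, where the CD-only curve is at 27.5% and the other at 20.9%.

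The sites nearest to the limits of the rule show how fine the limits are. Just inside the 1 kb distance were sites at Gm40364 (1007 bp from a gene end) and Git2 (1013 bp). Just outside were peaks at Arhgap21 (994 bp), Fgf21 (989 bp) and Nab1 (988 bp), which met all the other conditions. The lowest −log10 q of a CD region among the sites was 1.02, at Mettl2, Lgr6 and Bloc1s5. The peaks of the class with both marks whose DMSO region was weakest had a DMSO −log10 q of 1.00 at Map3k5, 1.03 at Abcc1 and 1.03 at Ankrd44, and a slightly stricter DMSO list would have made them CD only.

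CD-only sites lay inside a protein-coding gene in 625 cases (53.6%, 50.6% to 56.4%), beside 51.9% of DMSO-only peaks, 50.7% of peaks with both and 53.1% of peaks with none. Exons and introns were not assigned here. The median distance to the nearest gene end was 17990 bp, and it was 1 to 5 kb at 228 sites, 5 to 50 kb at 633, 50 to 500 kb at 295 and more than 500 kb at 11. The other classes had medians of 19480 bp (DMSO only), 19128 bp (both) and 21156 bp (none). Only 50 CD-only sites had another one within 10 kb.

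A small set of sites had strong Rxra and strong CD signal together. At Lrp1b, a large endocytic receptor, inside the gene at chr2:41896139-41896425, the Rxra fold was 37.8 in replicate 1 and 52.0 in replicate 2. The CD region there had a fold of 19.2 and a −log10 q of 121, the highest of all CD-only sites, and the nearest DMSO region was 1859536 bp away. At chr16:5709162-5709412, 175577 bp from Rbfox1, a neuronal splicing factor, the Rxra folds were 33.2 and 40.3. The CD fold there was 15.4 with a −log10 q of 108. The Lrp1b and Rbfox1 sites were the only 2 with a −log10 q over 100. The best mean rank was at chr17:93046440-93046706, 151774 bp from Adcyap1, which encodes the neuropeptide PACAP. The Rxra folds there were 42.8 and 50.3, with a CD fold of 12.2 and a −log10 q of 33.3. At chr9:3258593-3258985, 76364 bp from Alkbh8, a tRNA methyltransferase, the Rxra folds were 37.5 and 55.3. The CD fold there was 9.51 with a −log10 q of 16.9. Inside Hs6st3, a heparan sulfate sulfotransferase, chr14:119286944-119287187 had Rxra folds of 21.8 and 38.2, a CD fold of 12.9 and a −log10 q of 45.8. Inside the receptor tyrosine kinase gene Ros1, chr10:52144475-52144721 had Rxra folds of 22.6 and 27.6, a CD fold of 7.80 and a −log10 q of 15.5.

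The 6 sites at Lrp1b, Rbfox1, Adcyap1, Alkbh8, Hs6st3 and Ros1 were all those with a −log10 q of 10 or more. Their CD regions were narrow, from 164 bp at Rbfox1 to 243 bp at Ros1, beside a median of 394 bp. The nearest DMSO region was 22362 bp away at Rbfox1 and 65230 bp or more at the other sites. Narrow, strong signal in the CD list and both Flag-Rxra lists moved together at these sites. The source of this signal was not tested, and the sites were not screened against a list of artefact-prone regions. The next highest CD region was at Pde9a (inside the gene, −log10 q of 8.49, Rxra folds 19.1 and 13.7). After it came a site 78745 bp from the autophagy gene Atg7 (6.97, folds 7.31 and 4.63), where Rxra was below the median.

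Other sites with high Rxra ranks had CD regions near the list's limit. At chr2:71644115-71644557, 97555 bp from the homeobox gene Dlx2, the Rxra folds were 27 and 40.4. The CD fold there was 2.84 with a −log10 q of 1.40, and a DMSO region lay 412 bp away. A site 640389 bp from Nxph1, a neurexin ligand, had Rxra folds of 28.3 and 40.2 and a CD −log10 q of 1.97. A site 55108 bp from Cpne8 had folds of 23.7 and 41.6, with a CD −log10 q of 1.5. Kifap3, the kinesin-2 adaptor (chr1:163779371-163779874), had folds of 24.8 and 38.9 at an alternative start, with a CD −log10 q of 1.10. Ddx56, an RNA helicase (chr11:6267716-6267998), had folds of 26.3 and 37.1 at a start, a CD −log10 q of 1.69 and a DMSO region 389 bp away. A site 32480 bp from Epm2a, which encodes laforin, was between these sets. Its Rxra folds were 37.8 and 36.1 and its CD −log10 q was 3.8. High Rxra fold thus occurred with both strong and barely called CD acetylation.

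Each site was given to the coding gene that contained its summit or had the nearest end, which is a label of position and not a target. The sites fell to 1021 genes, 4.66% of 21887 coding genes, and 9.25% of coding genes lay within 50 kb of a site. Of the 1021 genes, 898 had 1 site, 103 had 2, 17 had 3 and 3 had 4. DMSO-only peaks fell to 1630 genes.

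The 3 genes with 4 sites encode transcriptional regulators. Hes1, a repressor that Notch signalling induces, had 4 CD-only sites between 40357 and 149859 bp from the gene, 5 distal peaks with no H3K27ac, and none that was DMSO only or had both marks. Rxra fold at the 4 sites was 14.2, 6.70, 7.0 and 13.0 in replicate 1 and 14.1, 15.3, 14.1 and 14.0 in replicate 2, in order along the chromosome, so the replicates differed most at the middle pair. The CD −log10 q was 1.63, 1.84, 3.15 and 2.01, and DMSO regions lay 267, 2051, 151 and 4684 bp away. The third site lay at the noncoding gene 4632428C04Rik. Its CD region itself overlapped a DMSO region outside the Rxra peak, so that region was called in both conditions. Ets1, an ETS-family factor, had 4 CD-only sites and 3 peaks without H3K27ac. The Rxra folds at the CD-only sites ran from 4.30 to 12.9 in replicate 1 and 9.02 to 12.6 in replicate 2, with a CD −log10 q of 1.03 to 1.62. The CD regions covered 20.5%, 5.19%, 100% and 14.0% of these peaks along the chromosome, and reached the summit only at 100%. Irf2bp2, a corepressor, had 4 CD-only sites, 2 DMSO-only peaks, 2 with both and 5 with none. Its sites had Rxra folds of 6.73 to 9.45 in replicate 1, all below the median of the CD-only sites, and 8.13 to 14.0 in replicate 2. The CD regions covered 35.2%, 76.3%, 26.5% and 29.0% of the peaks along the chromosome, and reached the summit only at 76.3%.

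The 17 genes with 3 sites were ordered by the best Rxra rank among their sites, and the first of them are named. High folds among them therefore reflect that choice. Zfp217, a zinc finger factor, had 3 CD-only sites and 1 peak with no H3K27ac. The Zfp217 folds were 12.3, 8.38 and 19.2 in replicate 1 and 18.5, 22.9 and 21.4 in replicate 2. Epc1, a subunit of the NuA4 acetyltransferase complex, had 3 CD-only sites, 1 peak with both marks and 1 with none, and its strongest site had folds of 19.1 and 26.4. Ergic1, a protein of the early secretory pathway, had 3 CD-only sites and 2 DMSO-only peaks, with the highest folds of 14.9 in replicate 1 and 21.3 in replicate 2. Slc12a8, a solute carrier, had 3 CD-only sites and 1 DMSO-only peak, with its highest folds at 18.7 and 17.1. Cops8, a subunit of the COP9 signalosome, had 3 CD-only sites, 1 DMSO-only peak and 1 with both, and its strongest site had folds of 14.6 and 18.8. Of these 8 genes, Hes1, Ets1, Zfp217 and Epc1 had no DMSO-only peak. Nsmce2, Foxl1, Pdzrn3 and 1700001O22Rik, with 3 sites each, had none either. Lacking a DMSO-only peak was common, as only 1630 of the 5853 genes with a distal shared peak had one.

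**Figure D4:**
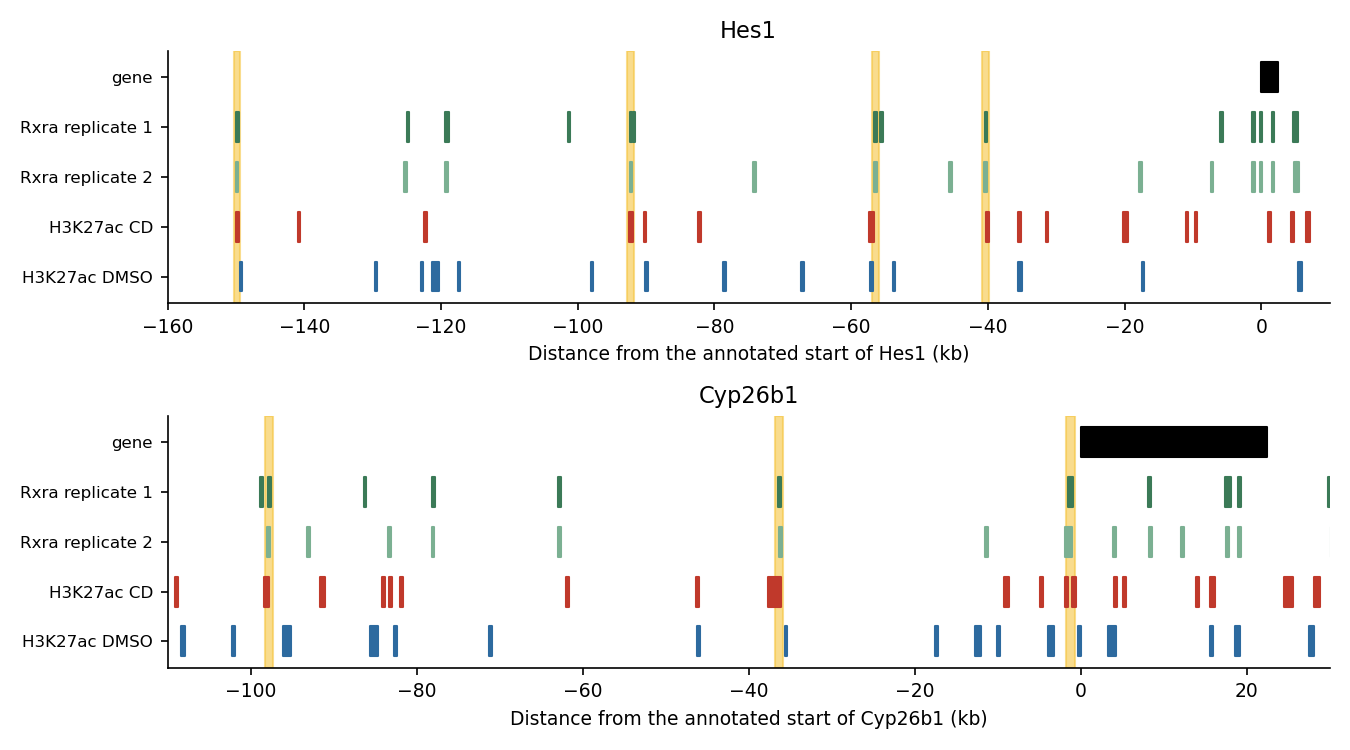
Deposited peaks around Hes1 and Cyp26b1 by distance from the annotated lower end of each gene (kb), with features under 350 bp drawn 350 bp wide. Yellow bands, 1000 bp wide, mark the CD-only sites: 4 at Hes1 and 3 at Cyp26b1, with DMSO regions close to several of them.

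Among genes that RXR dimers are known to bind, the PPAR-RXR targets had CD-only sites and no DMSO-only peaks. Of 20 listed genes, 4 had a CD-only site, none had a DMSO-only peak or one with both marks, and 9 had a distal shared peak of any class. Of all 21887 coding genes, 1630 had a DMSO-only peak and 5853 a distal shared peak of any class. In a list this short, the lack of DMSO-only peaks is therefore not read as a trait of PPAR targets. At a site 47204 bp from Lpl, the lipase that frees fatty acids from lipoproteins, the Rxra folds were 17.5 and 30.2. The CD −log10 q there was 1.66 and a DMSO region lay 1083 bp away. Next to Ehhadh, a peroxisomal β-oxidation enzyme, the folds were 15.9 and 24.5, with a CD −log10 q of 3.03. That site lay at the start of the noncoding gene 1300002E11Rik, 6592 bp from the nearest end of Ehhadh. Cpt1a had a second site besides the one at its start, with folds of 10.8 and 22.5 and a CD −log10 q of 1.59, and the nearest DMSO region was 18053 bp away. At a site 13673 bp from the lipid droplet protein gene Plin2 the folds were 7.23 and 10.9. The CD −log10 q there was 1.95 and a DMSO region lay 631 bp away. Angptl4 and Pdk4 each had 1 distal Rxra peak without H3K27ac. Over all the lists 10.0% of genes had a CD-only site, and 4.66% of all coding genes did. Other lists had similar CD-only counts, such as 4 of 19 TEAD, RUNX and C/EBP factors and YAP targets and 5 of 28 TGF-β pathway genes, so the CD-only count was not particular to PPAR targets. The counts were not adjusted for gene length or spacing.

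The other receptor lists had DMSO-only peaks as well. Of 20 genes for retinoid receptors and retinoic acid metabolism, 2 had a CD-only site, 6 a DMSO-only peak and 3 one with both. Rarb, a retinoic acid receptor and itself a retinoid target, had 2 CD-only sites, 1 DMSO-only peak and 7 with none. Its sites had folds of 7.44 and 17.4, and of 12.3 and 8.35. Cyp26b1, which breaks down retinoic acid, had 3 sites, 3 DMSO-only peaks, 1 with both and 5 with none. The folds at its 3 sites were 5.22 to 6.61 in replicate 1 and 6.50 to 7.89 in replicate 2, all below the medians of the CD-only sites. Of 13 RXR partner receptors, 2 had a CD-only site: Nr1h4, the bile acid receptor FXR, with folds of 7.70 and 17.8, and Ppard with 11.8 and 10.4. Of 16 LXR-RXR targets, 1 had a CD-only site and 4 a DMSO-only peak. That gene was Abca1, the cholesterol exporter, with 1 CD-only site 97066 bp away (folds 8.44 and 18.4) and 3 DMSO-only peaks. Of 25 cholesterol synthesis genes, 2 had a CD-only site and 2 a DMSO-only peak. Dhcr7, described above with its promoter, was among those with a CD-only site. Of 20 nuclear receptor coregulators, 2 had a CD-only site and 7 a DMSO-only peak. The folds were 16.6 and 20.6 inside Ncoa7 and 6.69 and 13.8 inside Nrip1, the corepressor RIP140. A DMSO region lay 17 bp from the Nrip1 peak.

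Lists for the fibroblast state held more genes with DMSO-only peaks than with CD-only sites, except for the mesenchymal factors, as did the genome (1630 against 1021 genes). Of 27 matrix and cytoskeleton genes, 2 had a CD-only site and 7 a DMSO-only peak, with Rxra folds of 15.4 and 19.8 at Col6a3 and 11.3 and 20.9 at Fbn1. The CD regions covered 7.75% of the Col6a3 peak and 19.9% of the Fbn1 peak. Of 28 TGF-β pathway genes, 5 had a CD-only site and 9 a DMSO-only peak. These were the receptor Tgfbr3 (13.0 and 15.7), the inhibitory Smad6 (14.0 and 12.3) and Smad7 (11.2 and 10.8), Smad3 with 2 sites, and the ligand Tgfb2. Of 19 TEAD, RUNX and C/EBP factors and YAP targets, 4 had a CD-only site and 7 a DMSO-only peak: Runx1 (7.27 and 22.6), Tead1 (9.94 and 12.1), Cebpb (7.55 and 10.4) and Ccn1 (5.37 and 6.52). The Cebpb site lay 99364 bp from the gene, with a DMSO region 24 bp from the peak. Of 17 AP-1 factors, 3 had a CD-only site and 5 a DMSO-only peak: Bach2 (17.98 and 13.7), Batf (7.06 and 17.2) and Atf3 (5.92 and 8.72). At Batf a DMSO region lay 14 bp from the peak, and the CD region covered 13.9% of the peak with a −log10 q of 1.05. Of 20 mesenchymal factors, 3 had a CD-only site and 2 a DMSO-only peak: Prrx1 (13.4 and 18.5), Twist1 (11.4 and 21.8) and Twist2 (9.86 and 25.3). The CD region covered 4.19% of the peak at Prrx1, 37.0% at Twist1 and 27.4% at Twist2. The folds and the values in brackets are for Rxra in replicate 1 and replicate 2, in that order.

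Inflammation, pluripotency and lineage lists had 2 or 3 genes each with a CD-only site. Of 32 NF-κB and inflammation genes, 3 had a CD-only site and 2 a DMSO-only peak. At a site 48245 bp from Tlr4, the lipopolysaccharide receptor, the Rxra folds were 22.6 and 28.8 with a CD −log10 q of 2.53. The other genes were Nfkbia (8.79 and 13.9) and Cxcl12 (6.68 and 12.1). Of 29 interferon and nucleic acid sensing genes, 2 had a CD-only site, Ifnb1 (15.8 and 17.2) and Ifih1 (11.0 and 11.6), and 1 had a DMSO-only peak. DMSO regions lay 299 bp from the Ifnb1 site and 8 bp from the Ifih1 site. Of 26 pluripotency factors, 2 had a CD-only site, Utf1 (6.46 and 15.7) and Tbx3 with 2 sites, and 5 had a DMSO-only peak. Of 17 extraembryonic endoderm genes, 2 had a CD-only site, Foxa2 (13.3 and 17.9) and Sox17 (8.29 and 6.67), and 4 a DMSO-only peak. The Foxa2 site lay 150845 bp from the gene, and its CD region covered 1.65% of the Rxra peak. Of 18 epithelial genes, 3 had a CD-only site, Krt18 (16.5 and 20.5), Dsp (9.25 and 15.7) and Krt8 (5.79 and 17.7), and 3 had a DMSO-only peak. None of 25 RNA exosome genes and cofactors and none of 26 retroelement silencing genes had a CD-only site, and 5 and 8 of them had a distal shared peak of any class. Over all lists, 44 of 438 genes had a CD-only site (10.0%), beside 4.66% of all coding genes. With lists this short, 1 or 2 genes set each difference.

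**Figure D5:**
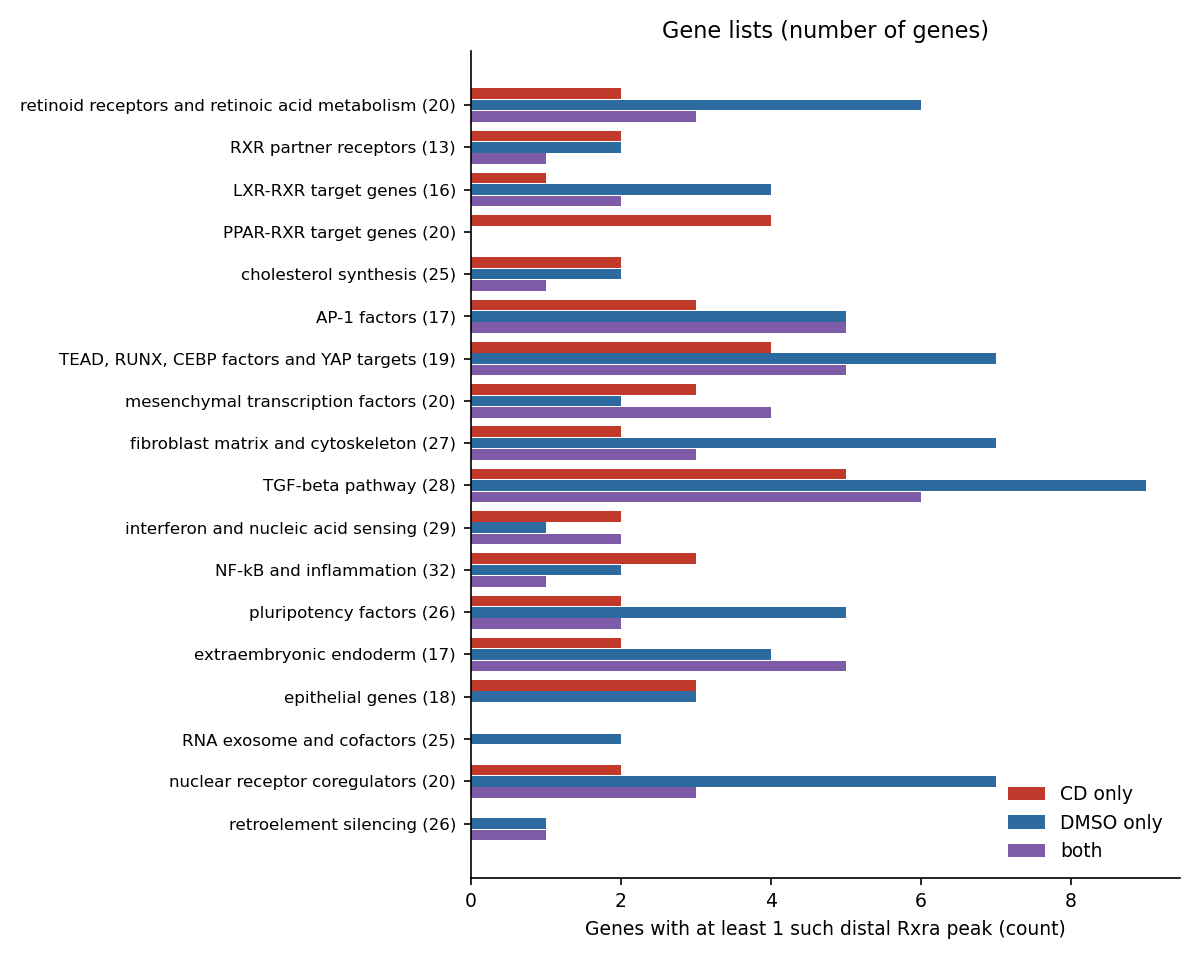
Number of genes of each list (list size in brackets) with at least 1 distal Rxra peak that was CD only, DMSO only or had H3K27ac in both. PPAR-RXR target genes have 4 genes with CD-only sites and none in the other classes, and DMSO-only bars are the longer ones in the retinoid, LXR, coregulator and matrix lists.

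Markers of other cell types were checked by the same assignment, as peak lists hold no RNA levels and the labelled fibroblast identity could not be checked from expression. CD-only sites were given to 1 of 8 endothelial markers, Pecam1 (folds 12.9 and 34.3), and to 1 of 7 adipocyte markers, Lep (12.5 and 20.3). None of 8 macrophage, 9 neural, 7 muscle and 7 keratinocyte markers had one. DMSO-only peaks were given to 2 endothelial, 2 keratinocyte and 1 macrophage markers, and to no neural, muscle or adipocyte marker. Of all coding genes 4.66% had a CD-only site, so with lists this short nothing is read from these counts about a cell type.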

How the data were processed

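CUT&Tag peak lists of 6 samples were used: 1 H3K27ac list for both CD replicates, 1 for both DMSO replicates and 1 for each Flag-Rxra replicate. Build mm10 and the tools MACS2 2.1.2, Bowtie2 2.2.5, fastp 0.20.1 and deepTools 3.4.3 are listed in the submitters' processing notes. Neither the way H3K27ac replicates were combined nor any control library is described in the labels. The fold is the authors' deposited ratio of signal to background, and the −log10 q and summit positions are deposited values too. The H3K27ac lists started at a −log10 q of 1.00 and the Rxra lists at 5.00. Folds and −log10 q values of lists called separately were set side by side only as descriptions. The lists hold no read counts, so depth and the precision it gives are unknown.

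Overlaps and distances were computed on chromosomes 1 to 19, X and Y with Python 3.11.15, pandas 2.3.3 and numpy 2.4.6, and tested on simulated intervals. Where several replicate 2 peaks or H3K27ac regions overlapped a site, the highest value was used. Gene positions, from RefSeq on GRCm38.p6, were matched by symbol for 438 of 442 listed genes. Motifs were planned around summits but searched in RefSeq promoter windows, as no genome sequence was used. In 1913 pairs of overlapping windows on opposite strands the sequences were exact reverse complements, with 0 mismatching pairs.

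The sites and gene lists were chosen with earlier results of these data known. Named sites were the 10 with the best mean rank of Rxra fold, the 8 with the highest CD −log10 q, the 8 genes with most sites, up to 3 sites per gene list and those nearest to the limits. Ties in the number of sites per gene were ordered by the best mean rank of Rxra fold. Some listed genes are not reported here. Further sites of listed genes and the printed promoters were chosen after their values were seen. No test between conditions was made, as each condition had 1 list, and exact binomial intervals (95%, scipy 1.17.1) cover counting error only. Alternatives for overlap, q, list length, distance, gene assignment and replicates were run.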

Additional observations from a re-analysis of the deposited data

How the results depend on the processing

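CD-only sites were fewer than DMSO-only peaks under every alternative run, and their number depended on the H3K27ac limit. The main count of 1167 became 315 with regions of a −log10 q of 2 or more (191 of them in the main set), 733 with Rxra peaks of 20 or more, and 755 when Rxra peaks had to overlap by 50% of each. Without 1 Flag-Rxra replicate it was 1898 to 2686, the larger number without replicate 1. The share of distal peaks that were CD only (10.2%) was 6.89% when the region had to cover 50% of the peak, 2.76% at a −log10 q of 2, 9.11% with the CD list reduced to the bases of the DMSO list, 7.40% with no region of the other list within 1 kb, and 7.34% to 9.58% without 1 replicate. The CD-only share of single-condition peaks (36.8%) was 34.4%, 32.8% and 33.4% under the first 3 of these, 34.8% with the stricter Rxra limit, and 40% to 41.4% without 1 replicate. The share inside genes (53.6%) was 50.3% without sites at promoter windows, an alternative chosen after seeing the data, which leaves out starts inside genes. The share above the no-H3K27ac median Rxra fold was 60.3% (replicate 1) and 58.4% (replicate 2) at a −log10 q of 2, 50.2% in replicate 1 with the stricter Rxra limit, and 57.7% in replicate 2 without replicate 1. Listed genes with a site rose from 44 to 75 when every gene within 50 kb was counted. The cause of these shifts was not tested beyond what each limit removes. The other 36 values stayed within 1.5 times the main count or inside its interval. No paired analysis was possible because the results come from no test.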

Other observations

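Some CD-only sites lay over noncoding genes in the RefSeq annotation. Transfer RNA genes were under 4 CD-only sites (0.343%), 11 DMSO-only peaks (0.549%), 4 peaks with both marks (0.297%) and 19 with none (0.275%), beside 0.332% of all distal peaks. Those under the 4 CD-only sites were n-TWcca5 (Rxra folds 12.5 in replicate 1 and 15.9 in replicate 2), n-TIaat6 (7.88 and 8.0), n-TSaga1 (5.87 and 7.16) and n-THgtg4 (8.06 and 13.6). Small nuclear RNA genes were under 1 CD-only site (0.0857%), 7 DMSO-only peaks (0.349%), 19 with both marks (1.41%) and 6 with none (0.0868%), beside 0.289% of all distal peaks. A microRNA gene was under 1 CD-only site (0.0857%), beside 0.0437% of all distal peaks. Long noncoding RNA genes were under 185 CD-only sites (15.9%), 304 DMSO-only peaks (15.2%), 196 with both marks (14.6%) and 957 with none (13.8%), beside 14.4% of all distal peaks.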
